A study of Mus musculus with 12 samples.

Results

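The levels of 10 heat shock chaperone mRNAs were followed in the cortex of mice with the complete deletion (CD) of the Williams–Beuren syndrome region and of their wild-type (WT) controls. The genes were taken by symbol from the deposited table of normalized counts and were 10 of its 17202 genes: Hspa1a, Hspa1b, Hspa8, Hspa5, Hsph1, Hsp90aa1, Hsp90ab1, Dnajb1, Bag3 and Hspb1. All 10 were among the 17111 genes whose mean normalized count over the mice was at least 10, and all 10 entered the tests. They were chosen with earlier results of these data known, so the shares of all genes set beside them are a description. RNA from 12 mice was sequenced, 3 of either genotype on vehicle (VEH-WT and VEH-CD) and 3 of either genotype on co-treatment (VERCUR-WT and VERCUR-CD). In CD mice, 1 copy of the stretch between Gtf2i and Fkbp6 on chromosome 5 is deleted, in every tissue, as a model of the human syndrome. By the study's methods, the mice were male, kept mostly on the C57BL/6J background and crossed to a transgenic line that labels pyramidal neurons with a fluorescent protein, and the tissue was frontal cortex. VERCUR stands for curcumin at 60 mg/kg/day, a compound of turmeric, together with verapamil, a blocker of calcium channels, both given in drinking water. VEH mice drank water with the solvent, 1% DMSO, by the study's methods, whereas the sample labels call them untreated. The labels give 10 mg/kg/day of verapamil, a start at 8 weeks of age and an age of 16 weeks at sacrifice, where the methods of the study give a lower dose of verapamil and a younger age. By the study's methods drink was measured per cage, but no source used here gives the cage or litter of each mouse. The p values therefore measure the spread between these 12 mice and do not cover effects shared within a cage.

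Heat shock proteins bind unfolded stretches of other proteins, hold them in solution and help them fold, and many are made in larger amounts when proteins unfold. HSP70 proteins work in a cycle driven by ATP, in which J-domain partners deliver clients and stimulate hydrolysis and nucleotide exchange factors release the client. Heat shock factor 1 switches on the inducible genes through heat shock elements in their promoters, while the chaperones of the endoplasmic reticulum (ER) answer to the unfolded protein response. In neurons the constitutive members HSC70 and HSP90 are abundant, and HSC70 also takes part in uncoating clathrin vesicles.

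The promoters of the members were searched for the elements of these circuits, and 4 are printed here: those of the 3 genes whose levels varied most among the mice and that of Hspa5, which held the element of the ER. RefSeq sequence of GRCm38.p6, from 250 bases before to 50 bases after a gene's start, was at hand for 7 of the 10 genes in 9 windows, and Hsp90aa1, Hsp90ab1 and Hspa8 had no entry. The heat shock element core was searched as GAANNTTC and as TTCNNGAA on both strands. A core was found for 5 of the 7 genes, Hspa1a, Hspa1b, Hspb1, Hsph1 and Bag3. Counted by window it was in 6 of the 9, and in 15.1% of 32851 promoters of the same length. Hsph1 alone of the 7 held 3 alternating units, TTCTGGAAAGTTC, a longer element that contains the core and was found in 0.603% of the promoters. It begins at base 16 or 37 of the transcript, depending on which of the RefSeq starts is taken. Hspa5 alone held the ER stress element, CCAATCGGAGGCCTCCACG, which begins at base -65, counted back from the start of the gene, and was found in 0.119% of the promoters. The windows of Dnajb1 held none of these motifs. In the 250 bases before the start, printed 5′ to 3′ in the direction of the gene, capitals mark a heat shock element core in the first 3 sequences and the ER stress element in the last.
Hspa1a: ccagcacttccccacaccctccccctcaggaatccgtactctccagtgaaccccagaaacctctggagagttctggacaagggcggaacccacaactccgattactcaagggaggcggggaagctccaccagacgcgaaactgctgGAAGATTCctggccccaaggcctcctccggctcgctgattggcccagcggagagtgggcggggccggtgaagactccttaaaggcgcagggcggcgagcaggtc
Hspa1b: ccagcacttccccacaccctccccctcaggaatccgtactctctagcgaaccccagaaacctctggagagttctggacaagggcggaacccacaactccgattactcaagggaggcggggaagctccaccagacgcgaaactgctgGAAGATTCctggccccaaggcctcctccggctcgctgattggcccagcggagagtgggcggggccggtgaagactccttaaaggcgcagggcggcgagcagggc
Hspb1: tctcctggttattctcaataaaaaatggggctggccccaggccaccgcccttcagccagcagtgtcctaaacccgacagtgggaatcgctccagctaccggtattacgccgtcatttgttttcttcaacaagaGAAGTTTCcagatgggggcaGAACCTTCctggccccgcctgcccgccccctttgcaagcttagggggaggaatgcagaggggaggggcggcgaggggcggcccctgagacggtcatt
Hspa5: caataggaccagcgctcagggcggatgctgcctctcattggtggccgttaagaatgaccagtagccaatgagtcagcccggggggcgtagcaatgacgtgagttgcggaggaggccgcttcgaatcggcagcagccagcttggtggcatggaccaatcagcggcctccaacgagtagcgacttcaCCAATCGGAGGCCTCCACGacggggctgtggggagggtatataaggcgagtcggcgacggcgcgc

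These stretches lie at chr17:34972157-34972406 for Hspa1a, chr17:34959239-34959488 for Hspa1b, chr5:135887669-135887918 for Hspb1 and chr2:34771840-34772089 for Hspa5, the first pair on the minus strand and the others on the plus strand. Hspa1a and Hspa1b shared 247 of the 250 bases, including the core GAAGATTC that begins at base -104. In Hspb1 the cores GAAGTTTC and GAACCTTC begin at bases -117 and -97. The transcripts of the Hspa1 pair were also alike. Of the 2868 different stretches of 100 bases in the transcripts of Hspa1a, 47.1% occurred in those of Hspa1b, and 49.9% of those of Hspa1b occurred in Hspa1a. Single reads of the length used in the study could then not be told apart over much of both genes. The study's reads were paired, and how many read pairs would stay ambiguous was not examined. The handling of such reads is not given in the sources used here, and the split of counts between Hspa1a and Hspa1b is uncertain. No stretch of 100 bases was shared between Hsp90aa1 and Hsp90ab1, or between Hspa8 and Hspa1a or Hspa2.

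The libraries held 40290000 to 56480000 counted reads per mouse. The 19 deleted genes in the table checked the genotype labels. Their summed level was 78472 to 84228 normalized counts in the 6 WT mice and 37231 to 41601 in the 6 CD mice, and all 19 were called lower in CD over both treatments. Markers of cortical neurons summed to 297379 to 325568 in the 12 mice. Markers of striatal neurons, which lie below the cortex, differed widely within groups, from 5395 to 25455 in VERCUR-WT and from 10929 to 25086 in VEH-CD.

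Per kilobase of annotated exon, the constitutive cytosolic chaperones were the most abundant members. Hsp90ab1, the constitutive HSP90, averaged 28069 normalized counts per kb over the 12 mice, Hspa8, which encodes HSC70, 24595, and Hsp90aa1, the inducible HSP90, 16602. The ranges of Hsp90ab1 and Hspa8 overlapped, and that of Hsp90aa1 lay below both. Hspa5, which encodes the ER chaperone BiP, followed with 3048 and Hsph1, an HSP110 that acts as nucleotide exchange factor, with 2173, and the ranges of this pair overlapped. Dnajb1, the J-domain partner HSP40, averaged 1108 and did not overlap its neighbours in the order. Hspa1b, Hspa1a, the small heat shock protein gene Hspb1 and the cochaperone Bag3 averaged 386.3, 331.7, 284.0 and 156.3, and each overlapped the next.

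The inducible HSP70 genes and Hspb1 varied most among the mice. Hspa1b reached 3.71-fold from the lowest mouse to the highest, Hspa1a 2.78-fold and Hspb1 2.69-fold. The corresponding value was 1.32-fold for Hspa8, 1.22-fold for Hsp90ab1 and 1.1-fold for Hsp90aa1. VEH-WT 2 was the highest of the 12 mice in all 10 genes, whereas it was the highest in 12.8% of all genes tested. VEH-WT 3 was second in 6 of them. The lowest mouse was a CD mouse in all 10 genes, VEH-CD 1 in 3, VERCUR-CD 2 in 3, VERCUR-CD 3 in 3 and VEH-CD 2 in 1, where a CD mouse was the lowest in 55.8% of all genes tested and VERCUR-CD 2 alone in 17.9%.

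**Figure D1:**
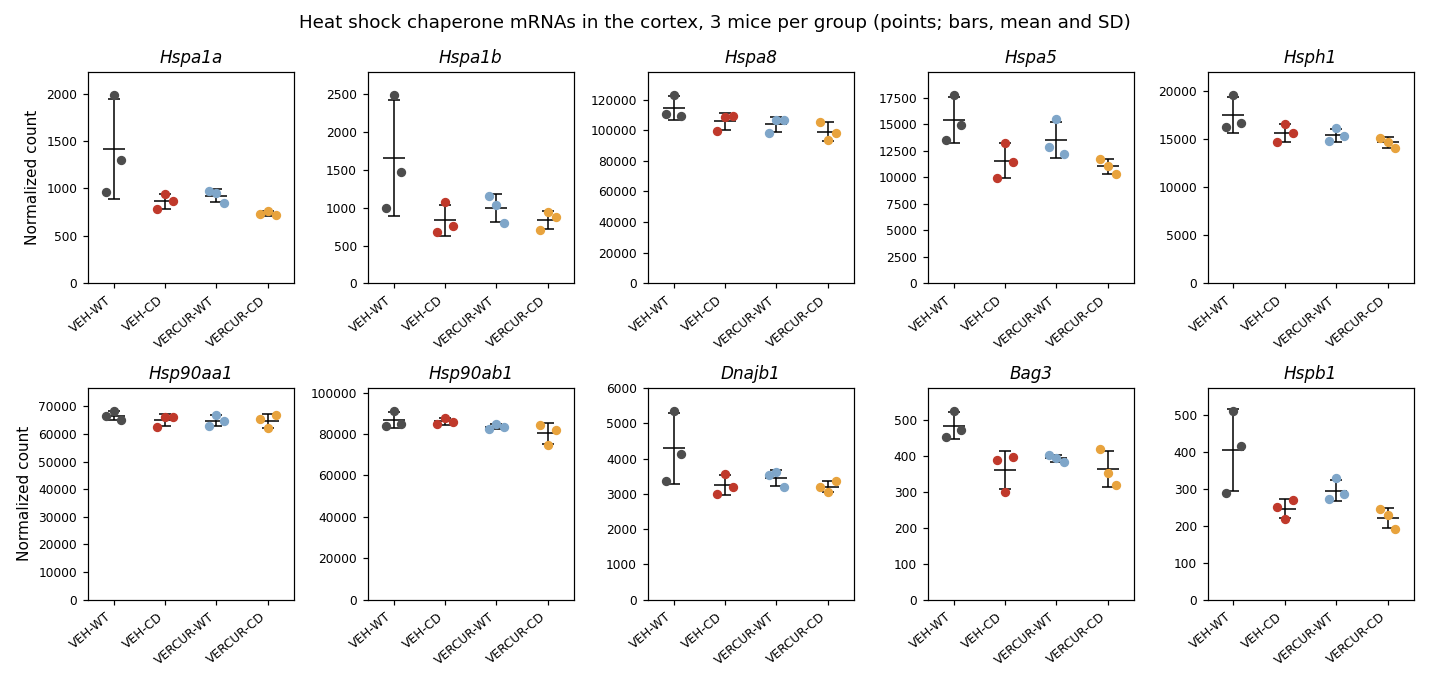
Normalized counts (vertical axes, from 0) of the 10 genes in each mouse (points) of the 4 groups, with the mean and SD of the 3 mice (bars). VEH-WT holds the highest point of every gene, and its SD is wide for Hspa1a, Hspa1b, Dnajb1 and Hspb1, while Hsp90aa1 and Hsp90ab1 sit at nearly the same height in all groups.

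The first comparison asks what the deletion does in mice on vehicle. No member was called in VEH-CD against VEH-WT by limma (adjusted p under 0.05 and a level over 25% higher or lower), where 0.257% of all genes were, and 6 of 10 had an unadjusted p under 0.05 against 11.8% of all genes. All 10 log2 fold changes were below 0, with a median of -0.40 where that of all genes was -0.003. The inducible HSP70 genes and Hspb1 had the lowest log2 fold changes, Bag3 and Hspa5 came next with nearly the same value, and the HSP90 genes were closest to 0. Every VEH-CD value lay below every VEH-WT value for 5 of the 10 genes, Hspb1, Hspa1a, Hspa5, Bag3 and Hspa8, and for 11.4% of all genes.

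Hspb1 encodes HSP27, which holds unfolded proteins without ATP and binds actin filaments. Its normalized counts were 290.3, 513 and 416 in mice 1, 2 and 3 of VEH-WT and 251.4, 219.9 and 269.5 in those of VEH-CD. The VEH-CD mice were lower by 0.68 on the log2 scale (log2 fold change -0.68, SE 0.18, 95% confidence interval -1.07 to -0.29, adjusted p = 0.168 by limma). The groups did not overlap, yet VEH-WT 1 lay just above the highest VEH-CD mouse, and VEH-WT 2 and VEH-WT 3 far above it. The paper lists Hspb1 among its deregulated genes, lower in VEH-CD, after a filter on the CV and with another model.

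Hspa1a and Hspa1b encode the stress-inducible HSP70. Hspa1a measured 959.5, 1991 and 1299 in the VEH-WT mice and 784.9, 939.5 and 866.1 in the VEH-CD mice (log2 fold change -0.65, SE 0.19, adjusted p = 0.216 by limma). Hspa1b measured 994.2, 2499 and 1479 in VEH-WT and 674.1, 1070 and 758.2 in VEH-CD (log2 fold change -0.92, SE 0.28, adjusted p = 0.223 by limma). For both genes the lowest VEH-WT mouse was close to or below the highest VEH-CD mouse, and the difference lay mainly in VEH-WT 2 and VEH-WT 3. Dnajb1, which stimulates the ATPase of HSP70, had the same order, with 3376, 5359 and 4139 in VEH-WT and 2996, 3550 and 3201 in VEH-CD (log2 fold change -0.38, SE 0.13, adjusted p = 0.285 by limma).

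Hspa5 measured 13553, 17815 and 14928 in VEH-WT and 9965, 13253 and 11436 in VEH-CD (log2 fold change -0.42, SE 0.12, adjusted p = 0.215 by limma). Bag3, which links HSP70 to small heat shock proteins and to autophagy of damaged proteins, measured 452.8, 525.4 and 472.8 in VEH-WT and 387.3, 300.2 and 396.5 in VEH-CD (log2 fold change -0.43, SE 0.12, adjusted p = 0.214 by limma). Neither gene's groups overlapped. For Hspa5 the lowest VEH-WT mouse, with 13553, lay close to the highest VEH-CD mouse, with 13253. For Bag3 these values were 452.8 and 396.5. Hsph1 gave a log2 fold change of -0.16 and Hspa8 of -0.11, and Hspa8 measured 110799, 123354 and 109088 in VEH-WT against 99559, 108769 and 109052 in VEH-CD. For Hsp90aa1 the log2 fold change was -0.04 (95% confidence interval -0.15 to 0.07) and for Hsp90ab1 -0.01 (-0.13 to 0.11).

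Single mice set the size of several of these differences. Without VEH-WT 2 the log2 fold changes of Hspa1a, Hspa1b and Dnajb1 were -0.37, -0.57 and -0.21 and that of Hspb1 was -0.50, and no member was called. Without VEH-WT 1, the lowest VEH-WT mouse in these genes, Hspb1 and Hspa1a were called (log2 fold changes -0.91 and -0.90, adjusted p = 0.0314 and 0.0343 by limma). The calls over all genes numbered 44 with all mice, 24 without VEH-WT 2 and 47 without VEH-WT 1.

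VERCUR-CD against VERCUR-WT asks for the same difference on treatment. No member was called, where 0.146% of all genes were, and 2 of 10 had an unadjusted p under 0.05, Hspb1 and Hspa5, against 4.1% of all genes. The 10 log2 fold changes were again below 0, from -0.42 to just under 0, with a median of -0.11. Hspb1 measured 273, 329.7 and 285.5 in VERCUR-WT and 245.2, 229.3 and 190.6 in VERCUR-CD (log2 fold change -0.42, SE 0.18, adjusted p = 1 by limma). Hspa5 measured 12817, 15505 and 12248 in VERCUR-WT and 11734, 11073 and 10346 in VERCUR-CD (log2 fold change -0.29, SE 0.12, adjusted p = 1 by limma). Hspa1a measured 968.6, 955.8 and 844.4 in VERCUR-WT and 726.8, 760.8 and 715.0 in VERCUR-CD (log2 fold change -0.33, SE 0.19). These 3 genes did not overlap between the groups, where every VERCUR-CD value lay below every VERCUR-WT value for 3.83% of all genes. Hspa1b overlapped, with 1156, 1043 and 798.6 in VERCUR-WT and 706.7, 943.4 and 871.9 in VERCUR-CD.

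Over both treatments, CD was again lower in all 10 genes and no member was called, where 0.321% of all genes were. The median log2 fold change was -0.26, and 7 of 10 members had an unadjusted p under 0.05 against 9.64% of all genes. Hspb1 stood apart from the other members in that every CD mouse, 190.6 to 269.5, lay below every WT mouse, 273 to 512.6, a separation found in 0.473% of all genes (log2 fold change -0.55, SE 0.13, adjusted p = 0.143 by limma). Hspa5 came next, with 5 of 6 CD mice below the lowest WT mouse and VEH-CD 2 within the WT range (log2 fold change -0.35, SE 0.09, adjusted p = 0.171 by limma). Hspa1a had 4 of 6 CD mice below the lowest WT mouse (log2 fold change -0.49, SE 0.13, adjusted p = 0.232 by limma). Without VEH-WT 1, Hspb1 and Hspa1a were called (adjusted p = 0.0148 and 0.0256 by limma), among 59 calls over all genes against 55 with all mice. Without VEH-WT 2 no member was called among 40.

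**Figure D2:**
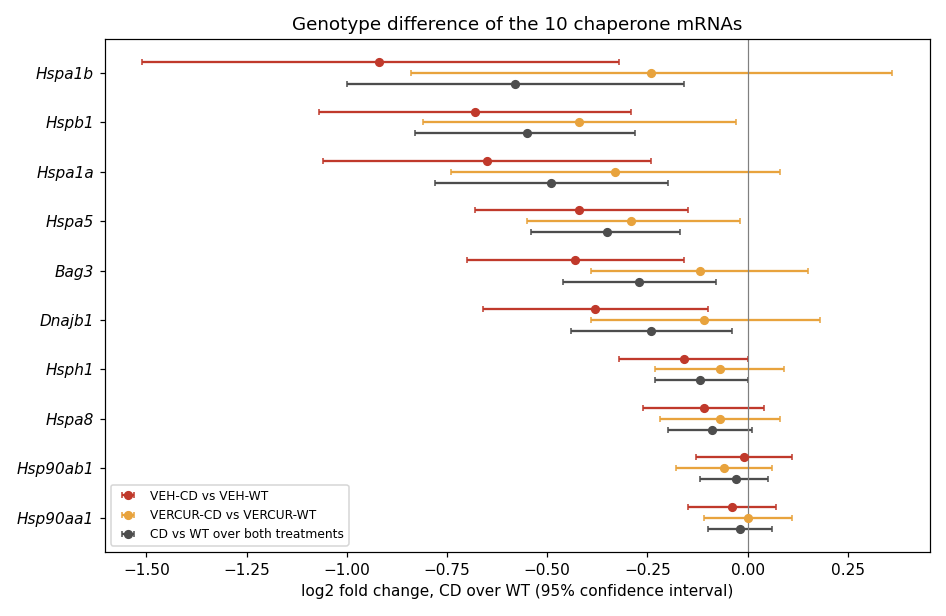
log2 fold change of CD over WT (horizontal axis) with its 95% confidence interval for each gene, in mice on vehicle, in mice on VERCUR and over both treatments. In mice on vehicle the intervals of 6 genes lie below 0, on VERCUR only those of Hspb1 and Hspa5 do, and the HSP90 genes lie close to 0.

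The treatment itself was compared in each genotype. In VERCUR-WT against VEH-WT no member was called, nor was any gene (0% of 17111), and 6 of 10 members had an unadjusted p under 0.05 against 5.22% of all genes. The log2 fold changes ran from -0.64 for Hspa1b to -0.04 for Hsp90aa1, with a median of -0.24. Every VERCUR-WT value lay below every VEH-WT value for 3 members, Bag3, Hsph1 and Hspa8, and for 5.25% of all genes. Bag3 measured 402.4, 392.7 and 383.8 in VERCUR-WT, all below the VEH-WT mice (log2 fold change -0.30, SE 0.12, adjusted p = 0.944 by limma). Hspa1a was at -0.55 (SE 0.19) with overlapping groups, since VERCUR-WT 1 with 968.6 exceeded VEH-WT 1 with 959.5. The same VEH-WT mice served here and in the genotype comparison on vehicle, so a high value of VEH-WT 2 enters both. Without VEH-WT 2 the log2 fold changes of Hspa1b, Hspa1a and Hspb1 in VERCUR-WT against VEH-WT were -0.30, -0.28 and -0.24.

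In VERCUR-CD against VEH-CD no member was called, nor was any gene (0% of 17111), and no member had an unadjusted p under 0.05 against 3.54% of all genes. The log2 fold changes ran from -0.23 for Hspa1a to 0.03 for Hspa1b, with a median of -0.07. The 95% confidence interval of Hspb1 was -0.55 to 0.23. Every VERCUR-CD value lay below every VEH-CD value for Hspa1a and Hsp90ab1, and for 4.63% of all genes. Over both genotypes, VERCUR against VEH called no member and no gene (0%), 4 of 10 members and 2.96% of all genes had an unadjusted p under 0.05, and no member separated the treatments, as 0.0234% of all genes did with every VERCUR value the lower. Hspa1a had the lowest value there (log2 fold change -0.39, SE 0.13).

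VERCUR-CD against VEH-WT sets the treated CD mice beside the reference group. No member was called, where 0.199% of all genes were, and 8 of 10 had an unadjusted p under 0.05 against 8.68% of all genes. Every VERCUR-CD value lay below every VEH-WT value for 8 members, all except the HSP90 genes, and for 7.33% of all genes. Hspa1b, Hspa1a and Hspb1 gave log2 fold changes of -0.89, -0.88 and -0.84 (SE 0.28, 0.19 and 0.18, adjusted p = 0.410, 0.152 and 0.144 by limma). Without VEH-WT 1, Hspa1a and Hspb1 were called in this comparison too (adjusted p = 0.00713 and 0.0102 by limma), among 39 calls over all genes against 34 with all mice. Without VEH-WT 2 no member was called among 26, and Hspa1b, Hspa1a and Hspb1 were at -0.54, -0.60 and -0.65. The means of Hspb1 were 406.4 ± 112 in VEH-WT, 246.9 ± 25.1 in VEH-CD, 296.1 ± 29.8 in VERCUR-WT and 221.7 ± 28.1 in VERCUR-CD (SD, n = 3). The treated CD mice had the lowest mean of this gene but overlapped the VEH-CD mice. For Hspa1a they measured 734.2 ± 23.8 against 1416 ± 526 in VEH-WT (SD, n = 3).

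Whether the genotype difference itself differed between the treatments was tested as an interaction. No member and no gene passed (0%), and no member had an unadjusted p under 0.05 against 6.05% of all genes. The interaction was above 0 for all members but Hsp90ab1 and was 0.67 for Hspa1b (log2 scale, 95% confidence interval -0.17 to 1.52), 0.32 for Hspa1a (-0.26 to 0.91) and 0.26 for Hspb1 (-0.28 to 0.81). Intervals of this width include both no difference and one as large as the genotype difference on vehicle. Single VEH-WT mice set much of these values, which were 0.325, 0.046 and 0.078 for Hspa1b, Hspa1a and Hspb1 without VEH-WT 2 and 0.99, 0.572 and 0.487 without VEH-WT 1.

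The high level of VEH-WT 2 went with other transcripts. The summed level of the 12 immediate early genes, which neurons switch on within minutes of activity, ran from 61073 to 102282 normalized counts in VEH-WT, with the highest value in VEH-WT 2. It ran from 18226 to 41252 in VEH-CD, from 30676 to 58705 in VERCUR-WT and from 31961 to 52744 in VERCUR-CD. The 7 glucocorticoid-responsive genes, of which the list of HSP90 cochaperones also holds Fkbp5, were highest too in VEH-WT 2, with a range of 17110 to 27009 in VEH-WT and of 13516 to 13853 in VEH-CD, 12999 to 16844 in VERCUR-WT and 14084 to 17083 in VERCUR-CD. The median log2 ratio to the mean of the 12 mice in VEH-WT 2 was 0.45 for the members, 1.07 for the immediate early genes and 0.62 for the glucocorticoid-responsive genes. The part of these transcripts in the chaperone differences was not tested. At the low end, VEH-CD 1 had the lowest sum of immediate early genes and a median ratio of -1.13, with the members at -0.13. It was the lowest of the 12 mice in 3 of the 10 members, Hspa1b, Hspa5 and Dnajb1. VERCUR-WT 2, with the next lowest sum and a median ratio of -1.24, had the members at 0.03. These values of single mice are a description and were not tested.

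**Figure D3:**
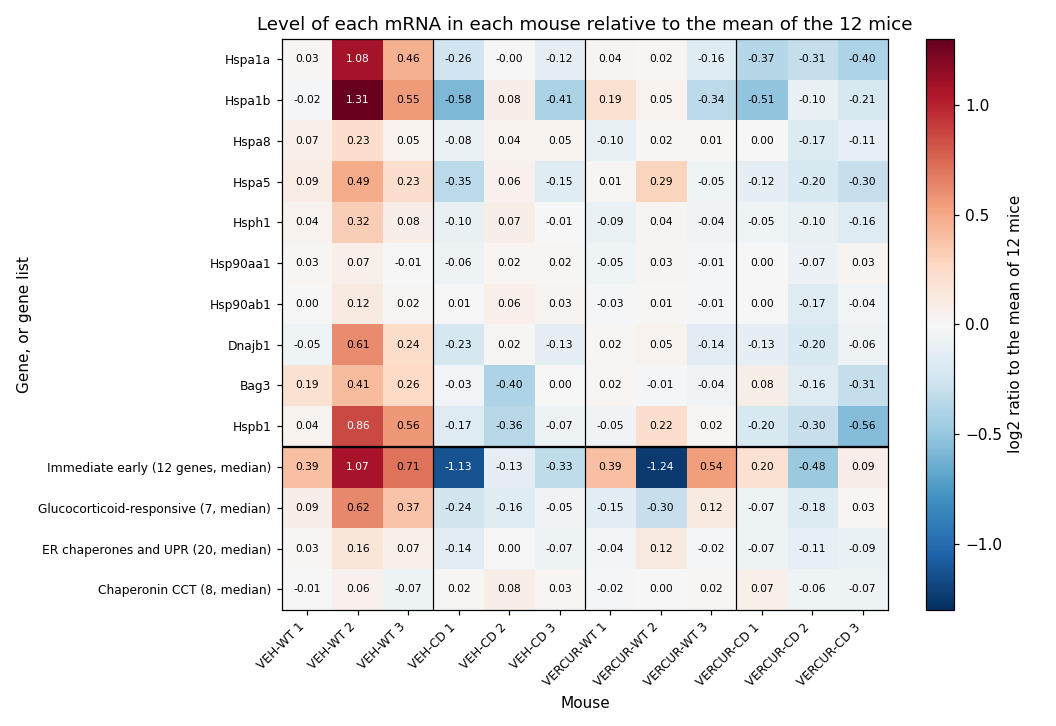
log2 ratio of each gene, or median of each gene list, to the mean of the 12 mice (colour and printed value), with mice as columns in their groups and a line between genes and lists. VEH-WT 2 and VEH-WT 3 are high in most chaperones and in the immediate early and glucocorticoid-responsive lists, and the chaperonin CCT list is between -0.07 and 0.08 in all mice.

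In mice on vehicle the lists of other chaperone families held no called gene. Dnajc30, a J-domain protein gene that is itself deleted, was listed with the deleted genes instead. It was called in VEH-CD against VEH-WT (log2 fold change -0.85, adjusted p = 0.000118 by limma). Of 28 cytosolic relatives and regulators of HSP70, HSP110 and HSP90, 20 were below 0 in VEH-CD against VEH-WT, with a median log2 fold change of -0.05 and 1 unadjusted p under 0.05. Their lowest was Chordc1, an HSP90 cochaperone (-0.27, adjusted p = 0.456 by limma). Of 14 J-domain proteins, 8 were below 0 with a median of -0.06, and the lowest was Dnajb5 (-0.68, adjusted p = 0.233 by limma), with normalized counts of 8307, 12913 and 7604 in VEH-WT mice and of 5402, 7180 and 5134 in VEH-CD mice. The groups of Dnajb5 did not overlap, and VEH-WT 2 was again the highest mouse. The 7 small heat shock proteins other than Hspb1 had a median of 0.03, with Hspb2 lowest (-0.37) and Hspb7 highest (0.34), so the log2 fold change of Hspb1 was below that of each of them. The 8 subunits of the chaperonin CCT, which folds actin and tubulin, had a median of 0.04 and the 8 mitochondrial chaperones one of -0.01.

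Of the other chaperone lists the ER list had the lowest median. All 20 ER chaperones and genes of the unfolded protein response were below 0 in VEH-CD against VEH-WT, with a median of -0.13, and 8 had an unadjusted p under 0.05. Sdf2l1, a partner of BiP, was the lowest (-0.65, adjusted p = 0.288 by limma), with 493.2, 804.8 and 669.2 in VEH-WT and 326.8, 526.3 and 397.7 in VEH-CD. Its lowest VEH-WT mouse lay below the highest VEH-CD mouse. Hsp90b1, the HSP90 of the ER, was at 0 (log2 fold change under 0.01 in size). In VERCUR-CD against VERCUR-WT 15 of the 20 were below 0 with a median of -0.09 and 4 unadjusted p under 0.05, and over both treatments 18 of 20 with a median of -0.15 and 9. The immediate early genes had a median of -1.15 on vehicle, with Egr2 lowest (-2.37, adjusted p = 0.105 by limma), and of 0.05 on VERCUR. The corresponding medians of the glucocorticoid-responsive genes were -0.56 and 0.02, with Per1 lowest on vehicle (-0.89, adjusted p = 0.213 by limma). The members' medians of -0.40 on vehicle and -0.11 on VERCUR were both below 0.

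**Figure D4:**
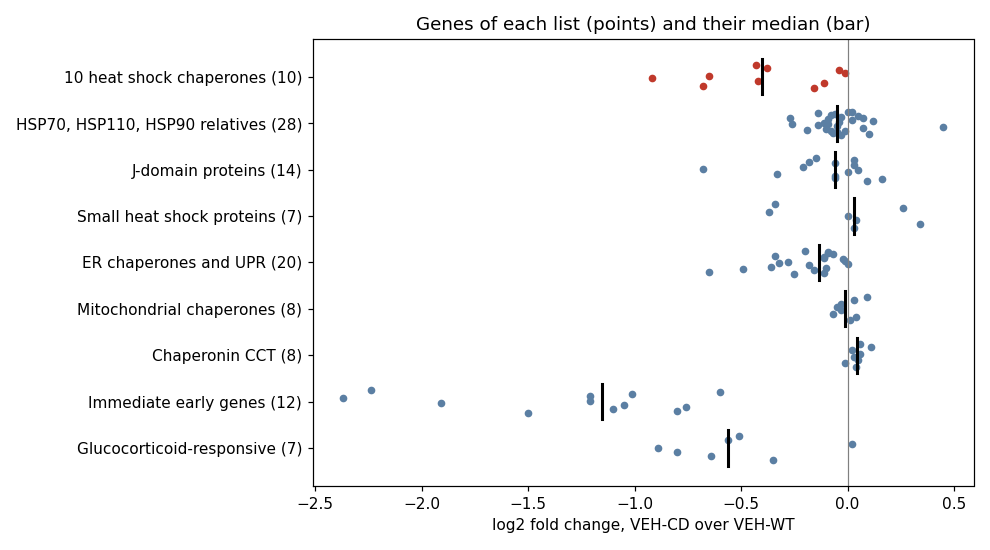
log2 fold change of VEH-CD over VEH-WT (horizontal axis) for each gene (points) of 9 lists, with the median of each list (bar) and the number of genes in parentheses. The 10 heat shock chaperones have a median of -0.40, the ER list -0.13, the other chaperone lists lie near 0, and the immediate early genes have the lowest median, -1.15.

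The cell type lists give what the tissue held beside these differences. In VEH-CD against VEH-WT the median was 0.14 for 6 microglia markers, -0.03 for 6 astrocyte markers, -0.16 for 6 oligodendrocyte markers and -0.14 for 6 markers of cortical neurons. The 9 endothelial markers and the 8 mural markers, which label vessels where small heat shock proteins are also made, had medians of 0.00 and -0.01. The 5 striatal markers had a median of 0.05, 5 markers of meningeal fibroblasts of -0.06, 4 of choroid plexus of -0.16 and 5 of red blood cells of 0.36. No marker in these lists was called. Medians further from 0 were found in the treatment comparisons. In VERCUR-WT against VEH-WT the striatal markers had a median of -0.73 (5 of 5 below 0) and the oligodendrocyte markers of -0.49 (6 of 6 below 0). In VERCUR-CD against VEH-CD these medians were -1.16 and -0.09, in VERCUR-CD against VEH-WT -0.94 and -0.28, and over both genotypes -0.94 and -0.30. Other lists also moved in VERCUR-CD against VEH-CD. Red blood cell markers had a median of -0.34 (5 of 5 below 0), choroid plexus markers of -0.26 (3 of 4 below 0) and astrocyte markers of 0.24 (0 of 6 below 0). The summed striatal markers were 11340 to 21810 in VEH-WT and 5739 to 18977 in VERCUR-CD, and those of oligodendrocytes 137398 to 215106 in VEH-WT and 74950 to 193923 in VERCUR-WT. The part of these cell types in the members' treatment differences was not tested. Fewer cells of a type and less RNA per cell cannot be told apart in bulk tissue.

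Hspb1 lies on the same chromosome as the deletion. Its gene spans chr5:135887919-135889563 on the plus strand (GRCm38, GENCODE M21) and starts 636.7 kb beyond the annotated end of Fzd9 and 537.9 kb beyond that of Fkbp6, which was not analysed here. It is outside the deleted stretch. Srrm3, a splicing factor of neurons, gave log2 fold changes of -0.01 on vehicle and -0.21 on VERCUR, and Ywhag, a 14-3-3 protein, of -0.07 and -0.07, both with overlapping groups. The difference between Hspb1 and these bordering genes was not tested. Among the 26 genes tested within 1 Mb outside the stretch from Gtf2i to Fzd9, Hspb1 was the lowest in CD against WT over both treatments, where the median was -0.04, and the only one with every CD mouse below every WT mouse. Trim50 was the only one called. It was listed at 0 in 5 of 6 WT mice and at 1.85 in VERCUR-WT 2, and at 230.5 to 293.6 in the 6 CD mice. Hsph1 is also on chromosome 5, 14.36 Mb beyond Fzd9.

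**Figure D5:**
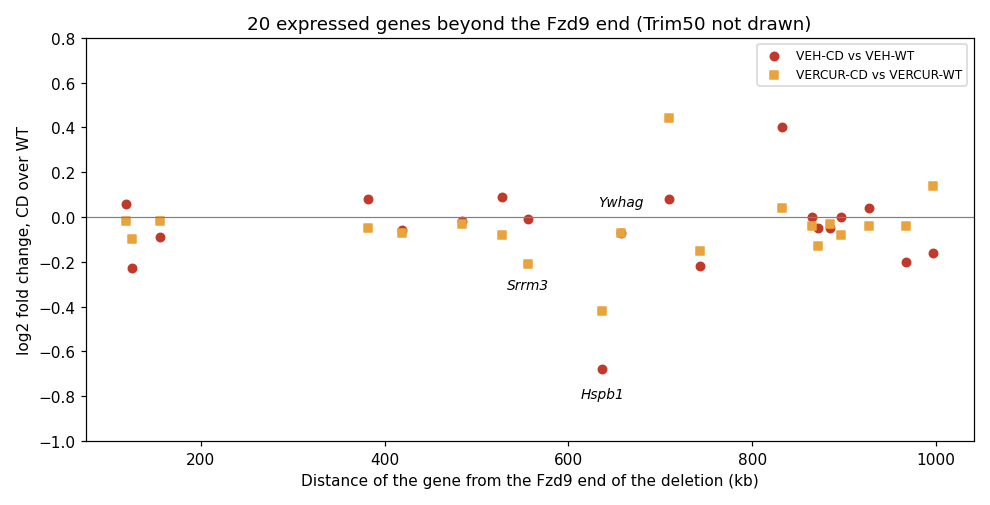
log2 fold change of CD over WT (vertical axis) against the distance in kb from the annotated end of Fzd9. The genes tested within 1 Mb beyond Fzd9 are drawn, on vehicle (circles) and on VERCUR (squares). Distances are counted from Fzd9, although the deletion runs past it to Fkbp6, which was not analysed. Hspb1 is the lowest point of both series, at -0.68 and -0.42, while Srrm3 and Ywhag on either side of it are at -0.01 and -0.07 on vehicle and at -0.21 and -0.07 on VERCUR, and Trim50 is left out because it is off the scale.

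Hspa1l, the HSP70 gene next to Hspa1a and expressed mainly in testis, had the opposite direction. It starts 547 bases from the Hspa1a gene on the other strand of chromosome 17, so the pair is divergent. Its normalized counts were 19.05, 13.86 and 16.51 in VEH-WT, 25.14, 22.96 and 20.36 in VEH-CD, 16.62, 12.04 and 13.8 in VERCUR-WT and 31.41, 35.97 and 24.06 in VERCUR-CD. All 6 CD mice were above all 6 WT mice (log2 fold change 0.75 over both treatments, SE 0.17, adjusted p = 0.129 by limma). The share of all genes that separated in this direction was not counted. The mean of Hspa1l over the 12 mice was 20.98, not far above the filter of 10, so the gene is low and was not called. The paper, with its filter on the CV and another model, lists Hspa1l among its deregulated genes, higher in VEH-CD. It was the highest of the 28 cytosolic relatives both on vehicle (0.45) and on VERCUR (1.05). Of the stretches of 100 bases in Hspa1a transcripts, 4.67% also occurred in those of Hspa1l, and whether reads were assigned by strand is not given in the sources used here.

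Over the 12 mice most pairs of members had profiles that went together. Pearson's r of log2 levels was 0.24 to 0.96 over the 45 pairs of members, with a median of 0.74, and -0.06 to 0.89 with a median of 0.53 without VEH-WT 2. These values share the libraries and their normalization and are given as a description. No median over pairs of other genes is given beside them. Group means were not removed, so differences between the groups enter them as well. For Hspa1a the most alike gene of the table was Dnajb1 (r = 0.955), followed by the predicted gene Gm7694 (0.952) and the immediate early gene Fosb (0.942). Dnajb1 was most like Hspa1b (0.960), Hspa1a (0.955) and Fosb (0.953), and Hspa1b most like Bcl6 (0.970), a transcriptional repressor, Dnajb1 (0.960) and Numb (0.956). Hspa5 was most like other genes of the ER, Pdia4 (0.985), a disulfide isomerase, and Sdf2l1 (0.967), and then Fmnl1 (0.959), and these were at 0.976, 0.952 and 0.944 without VEH-WT 2. Hspb1 was most like Hspa1a (0.908), Herpud1 (0.905), a gene of the unfolded protein response, and Tnfrsf12a (0.902), and Bag3 most like Maff (0.900), Nlrc5 (0.895) and Hspb1 (0.870). Hsph1 was most like Gm7694 (0.940), Tra2a (0.933) and Hspa1a (0.919). Without VEH-WT 2 the values of Hsph1 fell to 0.831, 0.825 and 0.769, those of Hspa1a with Dnajb1, Gm7694 and Fosb to 0.859, 0.858 and 0.825, and that of Hspb1 with Hspa1a to 0.832.

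The abundant members had other neighbours. Hspa8 was most like Bag5 (0.956), a nucleotide exchange factor of HSP70, Nrbf2 (0.931) and Gls2 (0.926). Hsp90ab1 was most like Dctn1 (0.955), Cactin (0.944) and Adgrb1 (0.934), and Hsp90aa1 most like Dnd1 (0.900), Gm28035 (0.894) and Zfp940 (0.894). No other member was among the 3 nearest genes of Hspa8, Hsp90aa1, Hsp90ab1 or Hspa5.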

How the data were processed

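Per the labels and the study's methods, mRNA of 12 mouse cortices was sequenced as paired reads and aligned by the authors to GRCm38 with STAR 2.5.3a. The authors deposited normalized counts per gene and mouse, written with a decimal comma. The counting program, the annotation and the normalization are not given in the sources used here. Low values in each mouse were whole multiples of 1 step (100% within 0.1 reads), from which the 40290000 to 56480000 counted reads follow. Each other deposited table, of expression relative to VEH-WT for genes the authors selected, with single mice left blank, was not used.

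A linear model with 4 group means over all 12 mice was fitted with limma 3.58.1 (R 4.3.3, empirical Bayes with an intensity trend). It took log2(normalized count + 1) of the 17111 genes with a mean of at least 10. Fold changes are on this scale, which understates the change of low genes. Tests were two-sided, with Benjamini-Hochberg adjustment over these genes. Calls needed an adjusted p under 0.05 together with a fold over 1.25 or below 0.75, except that the interaction used the adjusted p only. The fit was tested on simulated data. Genes were matched to the labels' mice by column name, and a replicate number only names a mouse. Same-numbered mice did not deviate together (18 pairs, r -0.347 to 0.267). All 10 members are named, with list genes that were called or were the highest or lowest of their list, genes bordering Hspb1, and the 3 genes most alike. The members and the 19 lists beside them were chosen with earlier results of these data known. Alternatives were other pseudocounts, filters, scalings, a fit of the compared groups only, no trend, a replicate block, removal of the most distant value in groups with a CV of 20% or more, the adjusted p alone and leaving out each mouse.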

Additional observations from a re-analysis of the deposited data

How the results depend on the processing

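The count of members called was 0 in all 8 comparisons and stayed 0 under every alternative except removal of single values in groups with a CV of 20% or more and leaving out VEH-WT 1. That removal, modelled on the study's filter on the CV, dropped VEH-WT 1 for Hspb1, VEH-WT 2 for Hspa1a, Hspa1b and Dnajb1, and VEH-CD 2 for Hspa1b. It gave 4 calls in VEH-CD against VEH-WT (Hspb1, Hspa5, Bag3 and Hspa1b), 1 in VERCUR-WT against VEH-WT (Hspb1), 4 in VERCUR-CD against VEH-WT (Hspb1, Hspa1a, Hspa5 and Bag3) and 2 in CD against WT over both treatments (Hspb1 and Hspa1b). It also raised the calls over all genes, from 44 to 972, 0 to 649, 34 to 840 and 55 to 837 in these 4 comparisons, since values chosen for their distance from the others were taken out. Leaving out single mice gave 0 to 2 calls in VEH-CD against VEH-WT, in VERCUR-CD against VEH-WT and in CD against WT over both treatments, the 2 being Hspb1 and Hspa1a without VEH-WT 1, and 0 elsewhere. The replicate block gave 0 calls in every comparison. The labels give only shared numbers, and 1 of 12 mice correlated best with its own number.

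Values near 0 changed sign. Under quantile normalization Hsp90aa1 was at 0.006 in VERCUR-CD against VERCUR-WT and Bag3 at -0.010 in VERCUR-CD against VEH-CD. Leaving out single mice moved Hsp90ab1 from -0.032 to 0.027 in VEH-CD against VEH-WT and Hsp90aa1 from -0.026 to 0.027 in VERCUR-CD against VERCUR-WT. In VERCUR-CD against VEH-CD it moved Hspa1b from -0.110 to 0.223, Hsp90aa1 from -0.033 to 0.025, Hspa5 from -0.158 to 0.048, Dnajb1 from -0.073 to 0.049 and Bag3 from -0.118 to 0.10. In the interaction it moved Hsp90ab1 from -0.085 to 0.004 and Hspa8 from -0.013 to 0.083. The other values of single members kept their direction. The 2 planned count models were not run: the deposited values are normalized counts written with a decimal comma, and only the log-scale test was used on them, although whole reads follow from the steps of the low values. With 3 mice a group an exact permutation test cannot go below p = 0.1, and the lowest value of a member was 190.6 normalized counts, far above 0.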
